A study of Mus musculus with 16 samples.

Results

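A set of 10 imprinted or imprinted-domain genes was followed in endothelial cells (ECs, the cells lining blood vessels) freshly sorted from mouse lungs: H19, Igf2, Dlk1, Meg3, BEGAIN, Peg3, Plagl1, Mest, Cdkn1c and Grb10. They are 10 of the 43346 genes in the deposited count table and were found by gene name, each name matching 1 gene. BEGAIN was chosen on its low values in Aged Sham against Young Sham, and the other genes were proposed with results of these data known, so that comparison is described without a test. BEGAIN is counted and tested only in Aged Bleo against Young Bleo, where no sham library enters. The 16 libraries form 4 groups of FVB mice: Young Sham (2 months old, n = 5), Young Bleo (2 months old, n = 4), Aged Sham (18 months old, n = 3) and Aged Bleo (18 months old, n = 4). Sham mice received the carrier, and Bleo mice received bleomycin, an injurious and fibrosis-inducing drug, into the airway about a month before the lungs were taken. All mice carried a Col1a1-GFP transgene, a reporter of collagen-producing cells, per the methods of the study, and the sort kept CD31+ cells that were negative for CD45, EpCAM and GFP. The labels only number the libraries of a group, and the study states that its data points from lungs stand for individual mice, so p-values are read as measuring the spread between mice.

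An imprinted gene is transcribed mainly or only from the copy inherited from 1 parent, because methylation set in the egg or sperm marks the other copy. Igf2, Dlk1, Peg3, Plagl1 and Mest are expressed from the paternal copy, and H19, Meg3, Cdkn1c and, in most tissues, Grb10 from the maternal copy. Many belong to a network that is highly active in fetal growth and falls in most organs after birth. Igf2 and H19 share an imprinted domain on chromosome 7, with Cdkn1c in the domain next to it. BEGAIN lies beside the Dlk1 and Meg3 domain on chromosome 12. The reads here do not tell the parental copies apart, and methylation was not measured, so imprinting itself was not assessed.

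Libraries held 20.9 to 71.0 M counts in genes (M for mega-counts). Endothelial markers were abundant in every library: the summed normalized count of 6 of them (Pecam1, Cdh5, Kdr, Cldn5, Erg and Tie1) was 236411 to 494493 over the 16 libraries. Such sums over different genes do not give shares of cells. Other cell types were also visible. The sum of 5 leukocyte markers (Ptprc, Cd68, Lyz2, Cd3e and Cd79a) was 2914 to 5009.6 in Young Sham, 7326.5 to 22783 in Aged Sham, 17410 to 53320 in Young Bleo and 24987 to 170042 in Aged Bleo, although the sort excluded CD45 (the protein of Ptprc). In bulk samples such as these, fewer cells of a type and less RNA per cell cannot be told apart. A normalized count here is a read count divided by the size factor of its library, and FPKM, which also divides by gene length, is used only to compare genes with each other.

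Mest, which encodes a hydrolase-fold protein and hosts a microRNA in an intron, was the most highly expressed of the 10 genes in all 4 groups. On the FPKM scale its level in young ECs was 32.6 ± 3.35 after sham (SD, n = 5) and 51.0 ± 11.3 after bleomycin (SD, n = 4). In aged ECs it was 21.9 ± 4.42 after sham (SD, n = 3) and 31.5 ± 10.1 after bleomycin (SD, n = 4). Cdkn1c, which encodes the cell cycle inhibitor p57, came second in every group, at 3.28 to 5.20 FPKM on average, and its range did not overlap that of Mest. In Young Sham the order then ran BEGAIN (2.01 FPKM), Grb10 (1.15 FPKM), Igf2 (0.497 FPKM), Peg3 (0.173 FPKM), Plagl1 (0.128 FPKM), H19 (0.0947 FPKM), Meg3 (0.0231 FPKM) and Dlk1 (0.00165 FPKM). The neighbours BEGAIN and Grb10 overlapped in range, as did each neighbouring pair from Peg3 downwards. BEGAIN stood at rank 3 in Young Sham and at rank 6 in Aged Sham, at 0.158 FPKM. Peg3 stood at rank 6 in Young Sham and rank 3 in Young Bleo, at 1.98 ± 2.01 FPKM (SD, n = 4), where its range overlapped those of Cdkn1c and Grb10. The plot of every member by library shows that the spread within a group differed greatly between genes.

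**Figure D1:**
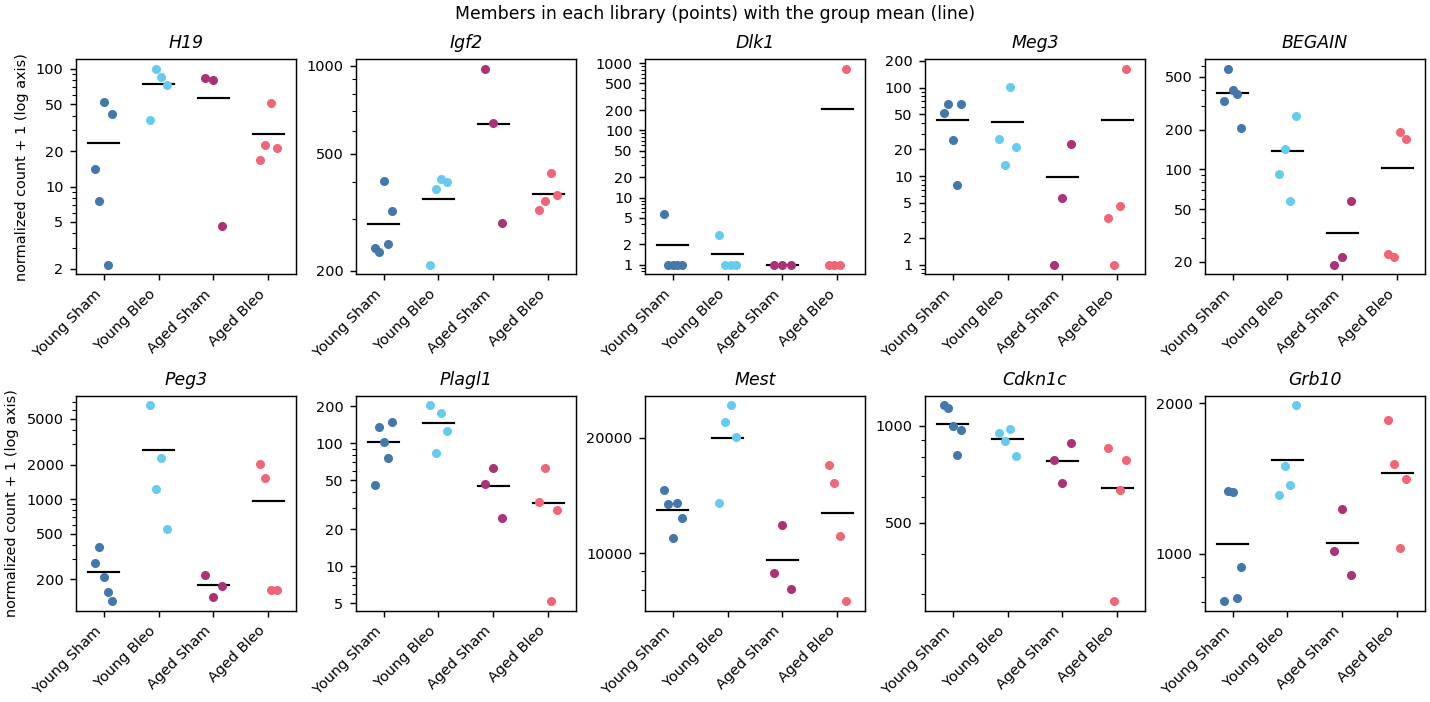
Normalized count plus 1 (log axis) of each of the 10 genes in each library (points, coloured by group), with the group mean as a line. The 4 Young Bleo libraries lie above all Young Sham libraries for Peg3, the group mean of BEGAIN is lowest in Aged Sham, and a single Aged Bleo library carries nearly all Dlk1 reads.

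The promoters of Peg3, Mest and Plagl1, the genes that passed the test in a comparison that did not choose them, are shown because this is where imprints act: Mest and Plagl1 have promoters that inherit methylation from the egg, as does the Peg3 promoter region. The windows are those of RefSeq (build GRCm38.p6), from 250 bases before to 50 bases after a transcript start, written 5′ to 3′ on the strand of the gene. Capitals mark 2 motifs searched on both strands: TGCCGC, the hexamer bound by the imprint-maintaining protein ZFP57 when its CpG is methylated (read as GCGGCA on the opposite strand), and GGGGCCCC, a GC-rich palindrome of the kind that the Plagl1 protein binds. No copy of 1 motif overlapped a copy of the other in the windows shown.
Mest, chr6:30737800-30738099, plus strand: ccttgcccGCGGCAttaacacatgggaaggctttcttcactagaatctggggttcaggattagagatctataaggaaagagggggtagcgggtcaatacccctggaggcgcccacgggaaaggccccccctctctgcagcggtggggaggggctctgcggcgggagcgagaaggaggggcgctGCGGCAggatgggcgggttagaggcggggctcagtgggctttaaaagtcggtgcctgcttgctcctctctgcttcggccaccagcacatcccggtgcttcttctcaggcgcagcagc
Plagl1, chr10:13090582-13090881, plus strand: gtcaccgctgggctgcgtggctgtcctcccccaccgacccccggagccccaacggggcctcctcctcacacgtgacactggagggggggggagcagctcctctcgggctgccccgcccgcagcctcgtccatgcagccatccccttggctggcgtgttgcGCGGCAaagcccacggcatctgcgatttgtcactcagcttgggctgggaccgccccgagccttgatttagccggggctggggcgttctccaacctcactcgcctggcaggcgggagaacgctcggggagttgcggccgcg
Peg3, chr7:6730370-6730669, minus strand: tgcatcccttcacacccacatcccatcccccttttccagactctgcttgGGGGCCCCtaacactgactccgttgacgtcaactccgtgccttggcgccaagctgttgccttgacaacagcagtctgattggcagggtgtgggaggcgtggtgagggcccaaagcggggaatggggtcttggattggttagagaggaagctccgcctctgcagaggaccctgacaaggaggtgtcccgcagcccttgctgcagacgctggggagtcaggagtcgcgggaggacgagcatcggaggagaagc
Where a gene had several windows, the one with the most hexamer copies is shown. The hexamer occurred 2 times in this Mest window, 1 time in the Plagl1 window and 0 times in the Peg3 window. Another Mest window (chr6:30733256-30733555) held 0 copies. Of the 32851 promoter windows of that length 11.6% held the hexamer, and a window chosen for its copies cannot be compared with that share. The palindrome occurred 1 time in the Peg3 window, against 1.1% of all windows. The CpG count was 17 for Mest, 26 for Plagl1 and 13 for Peg3, with a median of 7 over all windows. Of the 10 genes, 8 had an entry, with 19 windows in all, and H19 and Cdkn1c had none. At least 1 window held the hexamer for 5 of these 8 genes (Mest, Plagl1, Igf2, Grb10 and Meg3), and the palindrome for 2 (Peg3 and BEGAIN, whose entry is named Begain). Several of these genes had more than 1 window, so counts per gene cannot be set against the shares per window. A match of letters is a description and not a measured binding site.

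The first question was how these genes responded to injury in young ECs. A gene was called at a DESeq2 adjusted p of at most 0.05 and a log2 fold change of 0.5 or more in either direction. In Young Bleo against Young Sham, 2 of the 9 genes other than BEGAIN were called, Peg3 and Mest, both higher, while 14.1% of all tested genes were called in this comparison. Peg3, a paternally expressed zinc-finger factor on chromosome 7 (chr7:6703892-6730421), rose most. Its normalized counts were 275.7, 383.1, 209.1, 153.2 and 128.1 in Young Sham. In Young Bleo they were 6543, 1223, 2289 and 551.8. The groups did not overlap, and library Young Bleo 17 stood far above the other 3. This is a log2 fold change of 3.53 ± 0.782 (SE), or 11.5-fold (adjusted p = 0.0002 by DESeq2 and 0.0102 by the edgeR quasi-likelihood test). Without Young Bleo 17 it was 2.56 (DESeq2 adjusted p = 0.00388), and the call held with each of the 9 libraries left out in turn.

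Leukocyte markers were also higher in Young Bleo. Cd68, a macrophage gene, had 3203, 2801.1, 1569.3 and 585.8 normalized counts in Young Bleo, in the same library order as above, against 53.3 to 128.4 in Young Sham. Young Bleo 17 was the highest and Young Bleo 20 the lowest of the group for both Cd68 and Peg3. The summed leukocyte markers did not order the libraries as Peg3 did. Young Bleo 18 had the highest sum of its group, 53320, and the third Peg3 value, and Aged Bleo 3, with a sum of 42339, had 159.6 normalized counts of Peg3, a level within the sham range. In this comparison 3 of the 5 leukocyte markers (Ptprc, Cd68 and Lyz2) were called higher, and of the 6 endothelial markers Kdr and Cldn5 were called lower and Erg higher. All 4 mesothelial markers (Msln, Upk3b, Wt1 and Lrrn4, genes of the lung lining) were also called higher, at summed normalized counts of 1140.6 to 3425.6 against 0.978 to 270.2, with 1 of the 4 at 0 in every Young Sham library. The part of these cell types in the Peg3 result was not tested. The genes whose pattern was most like that of Peg3 over the 16 libraries, printed after the values were seen, were Nxn (Pearson r = 0.96), Polr2e (r = 0.93) and Id2 (r = 0.93) on log2(normalized count + 1), among 13774 genes compared.

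Mest, on chromosome 6 (chr6:30723547-30748455), had normalized counts of 10959 to 14605 in Young Sham with a median of 13462. In Young Bleo its counts were 13535, 21959, 24257 and 20043. Young Bleo 17, the library highest for Peg3, was the lowest for Mest and lay within the range of Young Sham. The log2 fold change was 0.62 ± 0.229 (SE), or 1.54-fold, with an adjusted p of 0.0441 by DESeq2 and 0.0773 by edgeR. The call was lost when any of 8 of the 9 libraries was left out (DESeq2 adjusted p from 0.0528 to 0.172), and it held without Young Bleo 17 (0.77, adjusted p = 0.0138). The 3′ end of Mest overlaps Copg2, itself an imprinted-domain gene with a mean normalized count of 3590.6, and the counting rule for shared reads is not stated.

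The remaining genes were not called in the young response. Grb10, an adaptor that restrains insulin and IGF receptor signalling, had 802.5 to 1337 normalized counts in Young Sham and 1311 to 1979 in Young Bleo, ranges that overlapped narrowly. The log2 change of 0.56 ± 0.219 (SE) missed the threshold (adjusted p = 0.0606 by DESeq2 and 0.0934 by edgeR). Without Young Sham 22 or Young Sham 23 it passed the DESeq2 threshold (0.67, adjusted p = 0.0269, and 0.66, adjusted p = 0.029). These were the Young Sham libraries highest for Grb10, so nothing is read from these passes. H19, a long noncoding RNA, had 1.17 to 51.3 normalized counts in Young Sham and 35.5 to 98.8 in Young Bleo (log2 fold change 1.72 ± 0.834 SE, DESeq2 adjusted p = 0.157). The differences of Igf2 (0.29 ± 0.31 SE), Plagl1 (0.53 ± 0.555 SE), Cdkn1c (-0.16 ± 0.248 SE) and Meg3 (-0.08 ± 1.26 SE) on the log2 scale were small against their errors. For Meg3 that error leaves changes of several fold in either direction undetectable at this depth.

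In Aged Bleo against Aged Sham, 0 of the 9 genes other than BEGAIN were called by DESeq2 or by the edgeR quasi-likelihood test, against 5.77% of all tested genes by DESeq2. By either tool 2 of the 9 had an unadjusted p under 0.05. Peg3 had normalized counts of 217.8, 138.5 and 175.5 in Aged Sham. In Aged Bleo it had 2025, 1541, 159.6 and 159.8, so the first 2 libraries lay far above the sham range and the other 2 within it. The log2 change of 2.46 ± 0.892 (SE) missed the threshold (adjusted p = 0.0772 by DESeq2 and 0.185 by edgeR). Without Aged Bleo 3 or Aged Bleo 5 it passed the DESeq2 threshold (2.81 in both cases, adjusted p = 0.0213 and 0.0248). These were the Aged Bleo libraries lowest for Peg3, so nothing is read from these passes. Cd68 divided Aged Bleo in the same way as Peg3, with 7891, 5840, 1319 and 914.1 normalized counts, and so did Lyz2 (161722, 98770, 40786 and 22333). The other leukocyte markers did not: Ptprc had 370.9, 370.7, 117 and 938.4, Cd3e 8.62, 7.37, 30 and 623.7, and Cd79a 48.6, 68.6, 87.0 and 177.6. Kdr, the VEGF receptor of ECs, divided the group in reverse, with 21679, 23875, 74233 and 56732. The other endothelial markers did not share 1 pattern. Cldn5 ran like Kdr (87612, 109300, 157529 and 136510), and Pecam1 did so narrowly (67013, 53240, 82944 and 68348). Cdh5 (30693, 39039, 37500 and 32840), Erg (1745, 1919, 1530 and 1805) and Tie1 (32659, 20408, 28884 and 28029) did not divide the group this way. Leaving out Aged Bleo 1 and 2, the libraries with the highest summed leukocyte markers, gave a Peg3 log2 fold change of -0.15 ± 0.695 (SE, DESeq2 adjusted p = 0.959). These libraries are also the ones in which Peg3 itself was high.

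The other genes showed smaller or more variable differences in the aged response. Igf2 had 973.1, 634.6 and 290.6 normalized counts in Aged Sham and 321.5, 344.9, 428.3 and 360.1 in Aged Bleo. The sham libraries spanned the whole range of the bleomycin libraries, and the log2 fold change was -0.79 ± 0.351 (SE, DESeq2 adjusted p = 0.176). Without Aged Sham 15, the lowest of the sham libraries for Igf2, it was -1.14 (adjusted p = 0.0146), and nothing is read from that pass. Mest (0.40 ± 0.26 SE), Grb10 (0.47 ± 0.249 SE) and Cdkn1c (-0.28 ± 0.283 SE) were not called on the log2 scale. H19 (-1.02 ± 0.946 SE), Plagl1 (-0.47 ± 0.649 SE) and Meg3 (2.21 ± 1.46 SE) had errors too large for a call.

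Age was compared in injured ECs, in libraries that were not used to choose BEGAIN. In Aged Bleo against Young Bleo, 1 of the 10 genes was called, Plagl1, lower with age, while 1.02% of all tested genes were called. Plagl1, a paternally expressed zinc-finger factor that restrains proliferation (chr10:13060504-13131694), had 202.7, 82.1, 175.2 and 126.0 normalized counts in Young Bleo. In Aged Bleo it had 32.2, 62.7, 4.20 and 27.6. The groups did not overlap. The log2 fold change was -2.21 ± 0.59 (SE), or 4.64-fold lower, with an adjusted p of 0.0236 by DESeq2 and 0.27 by edgeR. The DESeq2 call was lost without Aged Bleo 5 (adjusted p = 0.096), Young Bleo 17 (0.138) or Young Bleo 19 (0.116). Leaving out Aged Bleo 1 and 2, chosen after seeing the data, gave -3.23 ± 0.684 (SE, DESeq2 adjusted p = 0.00025). These libraries had the highest Plagl1 values of Aged Bleo, so this value is no check of the call. No leukocyte, endothelial, mesothelial, pericyte or epithelial marker was called in this comparison, and 1 of the 7 fibroblast markers, Dcn, was called lower. Marker sums still differed: leukocyte sums were 24987 to 170042 in Aged Bleo and 17410 to 53320 in Young Bleo. Fibroblast sums were 3847 to 6981 against 8678 to 13995, and pericyte and smooth muscle sums 2173 to 3563 against 3318 to 8563. Endothelial sums overlapped widely. The part of these cells in the Plagl1 result was not tested.

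BEGAIN did not differ detectably between injured aged and injured young ECs. Its log2 fold change in Aged Bleo against Young Bleo was -0.43 ± 0.656 (SE), with an adjusted p of 0.918 by DESeq2 and 0.922 by edgeR, and the groups overlapped. That error leaves a difference of severalfold in either direction undetected. Mest had a log2 fold change of -0.65 ± 0.241 (SE, DESeq2 adjusted p = 0.196). Without Aged Bleo 1, the highest Aged Bleo library for Mest, that value was -0.82 (adjusted p = 0.0444), and nothing is read from that pass. Peg3 was -1.45 ± 0.824 (SE) with an adjusted p of 0.558, and -4.05 ± 0.656 (SE, adjusted p = 3.6e-07) without Aged Bleo 1 and 2, its high libraries in that group. Igf2 (0.06 ± 0.325 SE) and Grb10 (-0.09 ± 0.23 SE) were close to 0 on the log2 scale. Cdkn1c (-0.51 ± 0.261 SE) and H19 (-1.43 ± 0.873 SE) were below 0 without a call.

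Aged Bleo was also set against Young Sham, a comparison that mixes age and injury and shares its controls with the young response. Here 1 of the 9 genes other than BEGAIN was called by DESeq2, Plagl1, lower, against 9.59% of all tested genes. Plagl1 had 45.3 to 148.6 normalized counts in Young Sham with a median of 102.5, and the ranges overlapped only through Young Sham 21 and Aged Bleo 2. Its log2 fold change was -1.68 ± 0.563 (SE, DESeq2 adjusted p = 0.0317, edgeR adjusted p = 0.106). The call was lost without Aged Bleo 1 (adjusted p = 0.0917), Aged Bleo 5 (0.0746), Young Sham 22 (0.0917), Young Sham 23 (0.0574) or Young Sham 25 (0.102). Cdkn1c had a log2 fold change of -0.67 ± 0.248 (SE, DESeq2 adjusted p = 0.0607) and passed without Aged Bleo 1 (-0.84, adjusted p = 0.0257) or Aged Bleo 5 (-0.78, adjusted p = 0.039). Peg3 (2.08 ± 0.783 SE, adjusted p = 0.0652) passed without Aged Bleo 3 (2.43, adjusted p = 0.0195) or Aged Bleo 5 (2.43, adjusted p = 0.0226). Grb10 (0.47 ± 0.219 SE, adjusted p = 0.161) passed without Aged Bleo 3 (0.61, adjusted p = 0.0476). The libraries left out were the highest of Aged Bleo for Cdkn1c and the lowest for Peg3 and Grb10. Nothing is therefore read from these passes. The part of leukocyte markers, 3 of 5 called higher here, and of pericyte and smooth muscle markers, 5 of 6 called lower, was not tested.

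**Figure D2:**
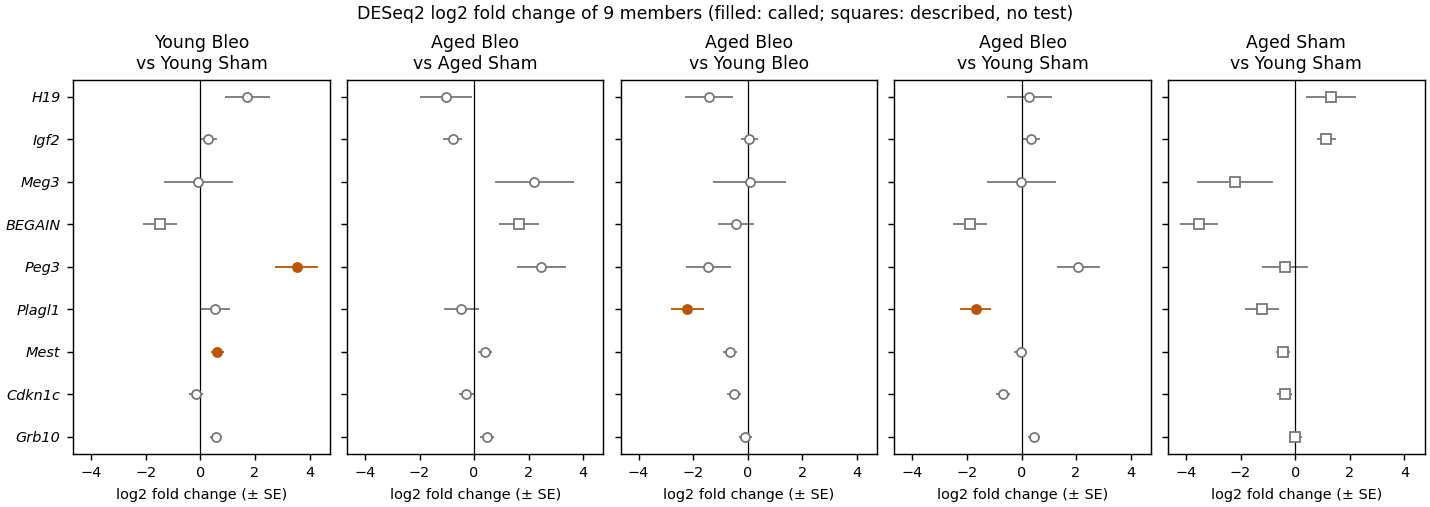
DESeq2 log2 fold change with its SE (bars) of 9 genes in the 5 pairwise comparisons, first group over second; filled circles were called, and squares are described without a test (all 9 genes in Aged Sham against Young Sham, and BEGAIN wherever sham libraries enter). Peg3 and Mest are filled in the young response (3.53 and 0.62), Plagl1 in Aged Bleo against Young Bleo (-2.21), and Plagl1 in Aged Bleo against Young Sham (-1.68); Dlk1 is left out because a single library carries its reads.

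BEGAIN encodes a protein that binds the guanylate kinase domain of a synaptic scaffold. Its row (ENSMUSG00000102226, chr12:109032984-109068167) lies almost entirely inside a second protein-coding row, Begain (ENSMUSG00000040867, chr12:109032187-109068217), and an antisense row, Gm28498, lies within both. The counts of BEGAIN were 0.375 to 0.833 times those of Begain per library, with a median of 0.728, and the 3 overlapping rows are not treated as separate genes here. Normalized counts of BEGAIN in Young Sham were 330.4, 574.2, 399.8, 367.3 and 204.3. They were 18.0, 20.8 and 56.7 in Aged Sham. Every aged sham library lay below every young sham library, which is how the gene was chosen. The log2 fold change was -3.54 ± 0.693 (SE), or 11.65-fold lower (described without a test), and Begain gave -3.24 ± 0.597 (SE) and Gm28498 -4.45 ± 1.13 (SE). Of the 9 other genes, 1 lay past both thresholds in this comparison by DESeq2, Igf2, and 0 by edgeR, where 3.29% of all tested genes were called by DESeq2. These genes were proposed with its results known, so nothing is read from that count.

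By group mean BEGAIN after bleomycin stood between the sham groups, while some libraries lay within the range of one sham group or the other. It had 91.8, 142.4, 56.2 and 252.7 normalized counts in Young Bleo, and 22.0, 20.6, 192.0 and 169.5 in Aged Bleo. The Aged Bleo libraries fell into 2 low and 2 high ones, the low ones being Aged Bleo 1 and 2. These comparisons share sham libraries with the one used to choose the gene, and their values are given without a test. Its log2 fold change was -1.47 ± 0.621 (SE) in Young Bleo against Young Sham, where Young Bleo 20 alone reached the sham range. It was 1.65 ± 0.725 (SE) in Aged Bleo against Aged Sham, and 2.47 ± 0.621 (SE) without Aged Bleo 1 and 2. It was -1.89 ± 0.621 (SE) in Aged Bleo against Young Sham, and -1.05 ± 0.549 (SE) without Aged Bleo 1 and 2.

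Markers of pericytes and smooth muscle were set beside BEGAIN, and they did not share 1 pattern. Pdgfrb, a receptor of pericytes (the mural cells of capillaries), had 1260 to 4027 normalized counts in Young Sham and 181.1 to 599.5 in Aged Sham. It had 216.6, 236, 242.4 and 1031 in Young Bleo, where Young Bleo 20 was the highest, as it was for BEGAIN. In Aged Bleo it had 69.8, 25.1, 266.4 and 467.2, with the lowest values again in Aged Bleo 1 and 2. Pdgfrb was picked for display after its values were seen. Myh11, of the same list, divided Aged Bleo likewise (65.1, 56.8, 198.6 and 343.9) and was also highest in Young Bleo 20 (585.8). Kcnj8 was lowest in Aged Bleo 1 and 2 too (56.5, 0.737, 126 and 64.1), though highest in Young Bleo 17 (183.7) of that group. Other markers of the list ran differently, such as Tagln (496.3, 783.5, 738.5 and 876 in Aged Bleo). Acta2, a smooth muscle actin, had 1420, 1913, 1320 and 1801 in Aged Bleo, with no such division, and Cspg4, a pericyte proteoglycan, had 65.9, 8.11, 79.2 and 10.5. The summed normalized count of the 6 pericyte and smooth muscle markers was 8460 to 18730 in Young Sham, 5525.7 to 9304 in Aged Sham, 3318 to 8563 in Young Bleo and 2173 to 3563 in Aged Bleo, and no marker was at 0 throughout a group. In Aged Sham against Young Sham 1 of the 6, Cspg4, was called, lower. The sum was lower in all Aged Bleo libraries than in any Aged Sham library, while the BEGAIN values of Aged Bleo 3 and 5 were above all 3 of Aged Sham. The part of these cells in the BEGAIN values was not tested.

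**Figure D3:**
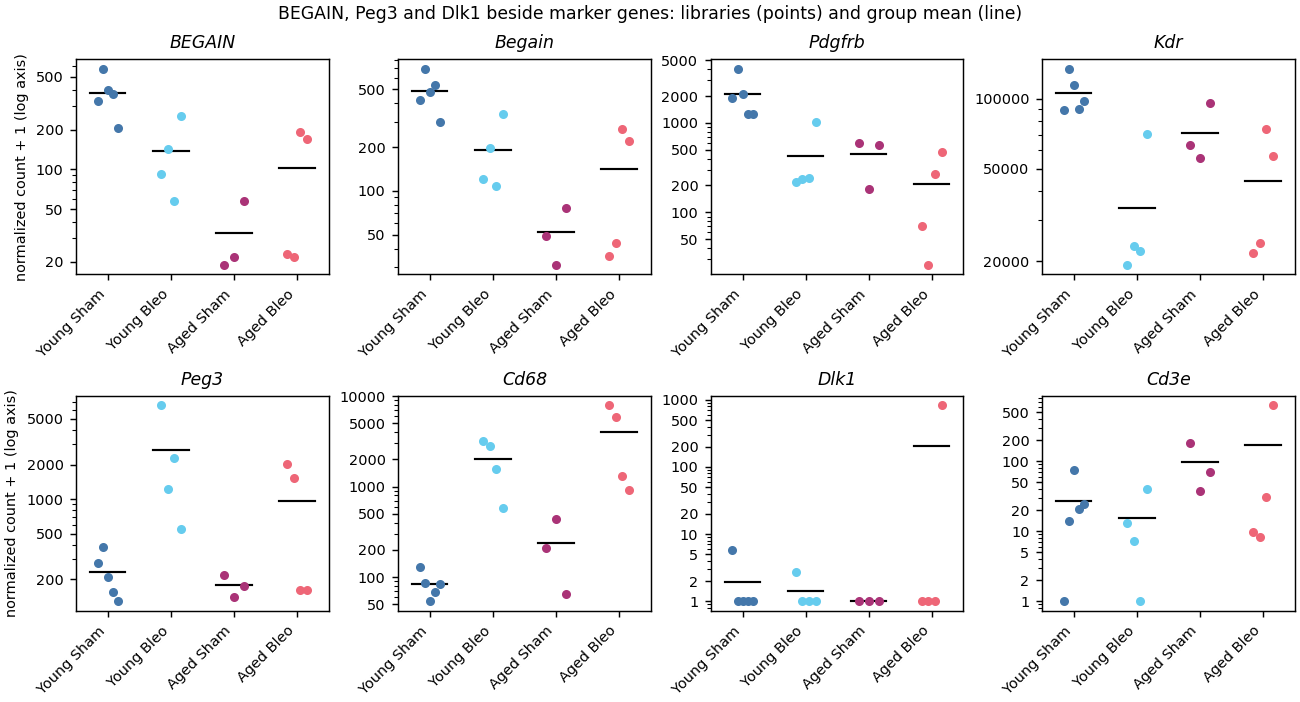
Normalized count plus 1 (log axis) by library (points) and group mean (line) for BEGAIN and its overlapping row Begain, Peg3 and Dlk1, beside the markers Pdgfrb (pericytes), Kdr (ECs), Cd68 (macrophages) and Cd3e (T cells). Aged Bleo 1 and 2 are low for BEGAIN, Pdgfrb and Kdr and high for Peg3 and Cd68, and Aged Bleo 5 is highest for both Dlk1 and Cd3e. The endothelial markers Cdh5, Erg and Tie1, not plotted, do not share the Kdr division. Among leukocyte markers, Cd3e and the unplotted Ptprc and Cd79a do not share the Cd68 division.

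The genes around BEGAIN were examined to see how far its pattern extended. Of 120 other genes within 1 Mb of the span from BEGAIN to Meg3, 15 had a mean normalized count of at least 10. In Aged Sham against Young Sham 3 of the 15 passed both thresholds by DESeq2, all lower, against 3.29% of all tested genes. They were Begain and Gm28498, which overlap the chosen gene, and Evl. By edgeR 2 passed, Begain and Evl. Begain and Gm28498 may share reads with BEGAIN, which was chosen on this comparison, so nothing is read from that count. Evl, which encodes an actin regulator, starts 478.3 kb before BEGAIN. Its normalized counts were 692.0 to 806.3 in Young Sham and 93.2 to 261.9 in Aged Sham (log2 fold change -2.0 ± 0.331 SE). Evl rose in the young response, to 1154 to 1498 normalized counts (0.81 ± 0.298 SE, DESeq2 adjusted p = 0.0444). It also rose in the aged response (1.12 ± 0.346 SE, DESeq2 adjusted p = 0.0264, edgeR adjusted p = 0.101), where the ranges overlapped. The difference of responses was not called (0.32 ± 0.457 SE, DESeq2 adjusted p = 0.906). Evl was lower in Aged Bleo against Young Bleo (-1.69 ± 0.315 SE, DESeq2 adjusted p = 7.7e-05, edgeR adjusted p = 0.0587). Degs2 was also called by DESeq2, higher in the young response (0.67 ± 0.224 SE) and lower in Aged Bleo against Young Bleo (-1.20 ± 0.236 SE). No neighbour was called by edgeR in the comparisons other than the sham one. The genes between Evl and BEGAIN did not share the sham difference: Degs2 (-0.36), Yy1 (0.39), Slc25a29 (0.30), Slc25a47 (0.18), Wars (-0.16) and Wdr25 (0.00) on the log2 scale were within 0.5 of 0, and these genes were named after their values were seen. Over the 15 genes the median log2 fold change was -0.07, against 0.02 over all tested genes.

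**Figure D4:**
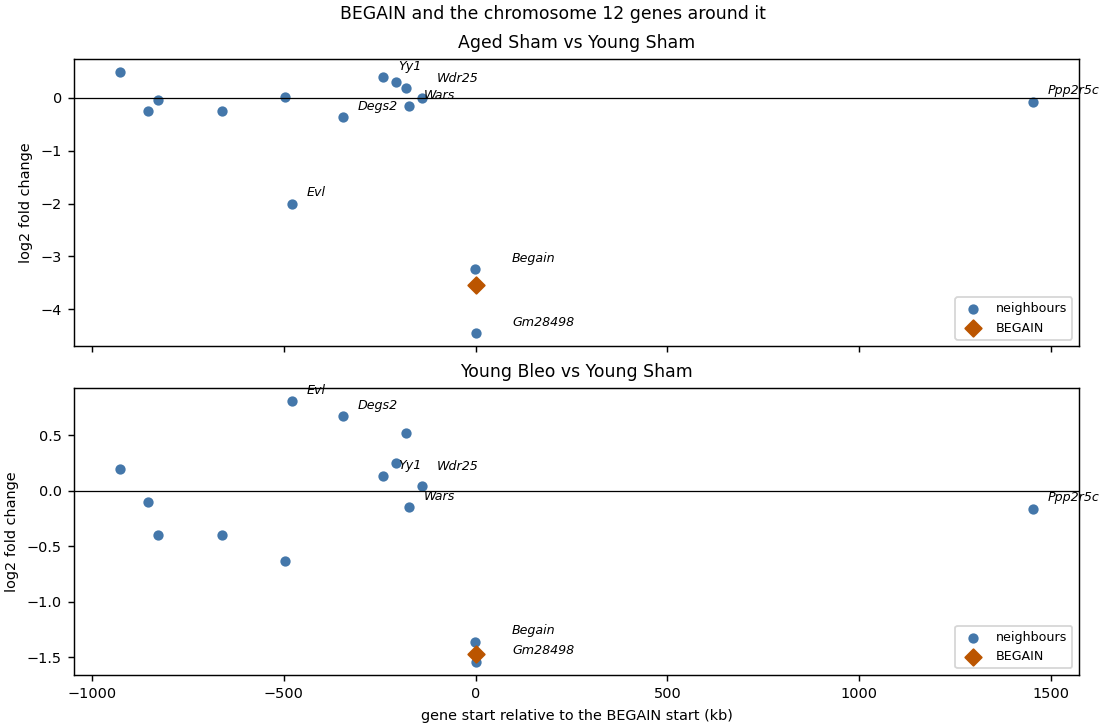
DESeq2 log2 fold change of BEGAIN (diamond) and of 15 neighbouring genes (circles) against the distance of each gene start from the BEGAIN start in kb, for Aged Sham against Young Sham (top) and Young Bleo against Young Sham (bottom). In the top panel Evl (-2.0) and the rows that overlap BEGAIN stand below the other neighbours, and in the bottom panel Evl (0.81) and BEGAIN (-1.47) lie on opposite sides of 0.

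Igf2, a fetal growth factor on chromosome 7 (chr7:142650766-142666816), was present in every library, at 196 counts or more, and an antisense row inside it, Igf2os, had a mean normalized count of 2.59. Its Young Sham values were 237.9, 229.9, 401.9, 245.7 and 318.7 normalized counts, against the 973.1, 634.6 and 290.6 of Aged Sham given above. Aged Sham 13 and 14 lay above all young sham libraries and Aged Sham 15 within them. The log2 fold change in Aged Sham against Young Sham was 1.14 ± 0.337 (SE), described without a test, and 0.70 without Aged Sham 13. H19 (chr7:142575529-142578143) followed the same split in the aged sham libraries, with 81.9, 79.6 and 3.66 normalized counts. Other markers in these libraries ran in different orders. The summed mesothelial markers were 727.4, 1837 and 3087, the reverse of the Igf2 order, while the B cell gene Cd79a, at 357.7, 152.3 and 119.7, had the same order as Igf2. The summed epithelial markers were 28201, 42592 and 9785, lowest in Aged Sham 15 like Igf2. In Aged Sham against Young Sham 3 of the 4 mesothelial markers and 1 of the 5 leukocyte markers, Cd79a, were called higher, and 0 of the 4 epithelial markers were called. The part of these cells in the Igf2 and H19 values was not tested. On the log2 scale the ratio of H19 to Igf2 (FPKM + 0.1) was -1.72 ± 0.42 in Young Sham (SD, n = 5) and -0.82 ± 0.19 after bleomycin (SD, n = 4). In aged ECs it was -1.92 ± 0.45 after sham (SD, n = 3) and -1.81 ± 0.25 after bleomycin (SD, n = 4). Each Young Bleo library had a higher ratio (-0.99 to -0.56) than any other library (-2.35 to -1.28), a description that was not tested.

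Dlk1 and Meg3 were carried by few libraries. Dlk1, a Notch-like transmembrane protein (chr12:109452823-109463336), had 0 counts in 13 of the 16 libraries. The other 3 were Young Sham 21 with 5 counts, Young Bleo 17 with 2 counts and Aged Bleo 5 with 1014 counts. DESeq2 gave Dlk1 no adjusted p because of that library, and no fold or ratio to Meg3 is given. A count of 0 in a library allows up to 3 counts, by counting error only. Meg3, a long noncoding RNA (chr12:109541001-109571726), was also highest in Aged Bleo 5, with 161.4 normalized counts against 2.35, 0 and 3.60 in the other Aged Bleo libraries. Young Sham had 50.04, 64.3, 24.6, 7.02 and 63.6, Young Bleo 25.1, 12.5, 101.4 and 20.1, and Aged Sham 0, 4.62 and 21.9.

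With all libraries Meg3 did not differ by the test in Aged Bleo against Young Bleo (log2 fold change 0.07 ± 1.33 SE, DESeq2 adjusted p = 0.997). Without Aged Bleo 5 it was called lower, at -4.30 ± 1.14 (SE, adjusted p = 0.0338), and against Young Sham at -4.39 ± 1.1 (SE, adjusted p = 0.00178). Between the sham groups it stood at -2.21 ± 1.4 (SE) on the log2 scale, lower in Aged Sham and described without a test. Aged Bleo 5 also stood apart in T cell and leukocyte genes: Cd3e had 623.7 normalized counts, against 7.37 to 30 in the other 3 Aged Bleo libraries, and Ptprc had 938.4, against 117 to 370.9. Its summed leukocyte markers, 24987, were nevertheless the lowest of that group. The part of this library's other cells in Dlk1 and Meg3 was not tested.

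Whether the aged response differed from the young one was tested as the difference of both log2 fold changes, Aged minus Young. It was called for 0 of the 9 genes other than BEGAIN by DESeq2 and by the edgeR quasi-likelihood test, against 0.382% of all tested genes by DESeq2. An unadjusted p under 0.05 was given to 2 of the 9 by DESeq2 and to 1 by edgeR. The difference contains the sham age difference, so BEGAIN, at 3.12 ± 0.954 (SE) on the log2 scale, is given without a test. The next values were H19 (-2.74 ± 1.26 SE, DESeq2 adjusted p = 0.545), Meg3 (2.28 ± 1.93 SE, adjusted p = 0.817), Igf2 (-1.08 ± 0.468 SE, adjusted p = 0.488) and Peg3 (-1.07 ± 1.19 SE, adjusted p = 0.874). Mest (-0.22 ± 0.346 SE), Cdkn1c (-0.12 ± 0.376 SE) and Grb10 (-0.09 ± 0.332 SE) lay within 1 SE of 0. Without Aged Bleo 1 and 2 the Peg3 difference was -3.68 ± 0.861 (SE, DESeq2 adjusted p = 0.00312), since those were the Aged Bleo libraries with high Peg3.

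Other imprinted genes were read from a list of 55, of which 53 names were found (Snrpn on 2 rows). In the young response 9 rows were called of the 37 with an adjusted p (24.3%), 3 higher and 6 lower, and 7 by edgeR. Of all tested genes 14.1% were called by DESeq2 in this comparison. The median log2 fold change of those 37 was -0.16, against 0.01 over all tested genes. Cd81, a tetraspanin of the Igf2 and Kcnq1 chromosome region, rose (log2 fold change 1.12 ± 0.184 SE, DESeq2 adjusted p = 1.8e-07), as did Slc22a18, a transporter of the same region (1.81 ± 0.439 SE, adjusted p = 0.00083), and Airn, the noncoding RNA antisense to Igf2r (0.86 ± 0.299 SE, adjusted p = 0.0293). Snrpn, an RNA-splicing protein of the Prader-Willi region, fell on both rows (-1.31 ± 0.275 SE and -1.43 ± 0.36 SE, adjusted p = 7.5e-05 and 0.00138). These rows overlap (chr7:59982495-60140219 and chr7:59974149-60005064) and may share reads, so they are not read as separate results. Gab1, a signalling adaptor, also fell (-1.10 ± 0.336 SE, adjusted p = 0.0105). In Aged Bleo against Aged Sham 1 of 38 was called (2.63%), against 5.77% of all tested genes. It was Dcn, a collagen-binding proteoglycan that also marks fibroblasts (-1.56 ± 0.327 SE, adjusted p = 0.00034). Between the injured groups 3 of 38 were called by DESeq2 (Cd81, -0.84 ± 0.194 SE, Dcn, -1.64 ± 0.302 SE, and Sgce, 0.58 ± 0.162 SE), against 1.02% of all tested genes, and 0 by edgeR. Against Young Sham, 4 of 38 were called in Aged Bleo (10.5%), close to the 9.59% of all tested genes, with Ndn lowest (-1.61 ± 0.275 SE, adjusted p = 7.2e-07). The difference of responses was called for Cd81 (-1.31 ± 0.28 SE, adjusted p = 0.00475), Dcn (-1.92 ± 0.434 SE, adjusted p = 0.011) and Gnas (-0.74 ± 0.183 SE, adjusted p = 0.0239) by DESeq2, against 0.382% of all tested genes, and for 0 genes of the list by edgeR. In Aged Sham against Young Sham 1 of 38 was called (2.63%), against 3.29% of all tested genes: Ppp1r9a, lower, a gene named after its value was seen.

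Igf2 acts through Igf1r and the insulin receptor and is cleared by Igf2r, and binding proteins hold it in the tissue. Of 18 genes of this axis, 15 had an adjusted p, and 1 of the 18, Igf2r, is also in the imprinted list. Their median log2 fold change in the young response was -0.01. In the young response 4 of the 15 were called, by DESeq2 and by edgeR alike, against 14.1% of all tested genes by DESeq2. They were Igfbp5, higher (1.49 ± 0.245 SE, DESeq2 adjusted p = 2e-07), and Igfbp2 (-2.13 ± 0.548 SE, adjusted p = 0.00176), Irs1 (-1.99 ± 0.427 SE, adjusted p = 0.00011) and Igfbp7 (-0.82 ± 0.217 SE, adjusted p = 0.00264), lower. In Aged Bleo against Aged Sham 1 of the 15 was called (6.67%), close to the 5.77% of all tested genes. It was Igfbp7 (-1.05 ± 0.247 SE, adjusted p = 0.00176), a binding protein abundant in ECs. Against Young Sham, 3 of the 15 were called in Aged Bleo, against 9.59% of all tested genes: Igfbp3 higher (1.41 ± 0.395 SE, adjusted p = 0.00673) and Irs1 (-1.54 ± 0.426 SE, adjusted p = 0.00576) and Igfbp7 (-1.02 ± 0.217 SE, adjusted p = 0.00014) lower. The difference of responses was called for 0.382% of all tested genes by DESeq2, and for 1 of the 16 axis genes with an adjusted p, Igfbp5 (-1.40 ± 0.371 SE, DESeq2 adjusted p = 0.0446, edgeR adjusted p = 0.362). Its normalized counts averaged 1486 in Young Sham and 4162 in Young Bleo, against 2120 in Aged Sham and 2250 in Aged Bleo. In both age comparisons, sham and injured, 0 of the 15 were called by DESeq2 or edgeR, against 3.29% and 1.02% of all tested genes by DESeq2. An unadjusted p under 0.05 was given by DESeq2 to 3 of the axis genes in sham and to 1 after bleomycin. The receptors Igf1r (-0.41 ± 0.234 SE) and Igf2r (0.63 ± 0.254 SE) were not called in the young response (DESeq2 adjusted p = 0.25 and 0.072).

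Likeness of pattern was measured as Pearson's r of log2(normalized count + 1) over the 16 libraries, which pool 4 groups and share their cell makeup. After Begain (r = 0.99), the row that overlaps it, BEGAIN was most like Rtn4rl1 (r = 0.90) and Ackr4 (r = 0.89). Igf2 was most like Uhmk1 (r = 0.81), Calm3 (r = 0.80) and Armc3 (r = 0.79). H19 was most like Prpf4 (r = 0.83), Asap3 (r = 0.81) and Wapal (r = 0.79), and Meg3 most like Stx5a (r = 0.84), L3mbtl2 (r = 0.84) and Zfp551 (r = 0.83).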

How the data were processed

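RNA was sequenced from sorted lung ECs in 16 libraries. Per the labels and the methods of the study, the authors aligned reads with STAR (version 2.5.2b) to mm10 and counted them per gene with featureCounts of Subread. The deposited table holds counts and FPKM values (which the authors divided by gene length and library size) for 43346 genes. The annotation release, strand setting and rule for shared reads are not given in the sources used here, and the kit is SMART-Seq v4 with Nextera in the labels but TruSeq in the methods.

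Genes were tested on counts with DESeq2 (version 1.42.0, R 4.3.3), the tool of the study: a Wald test in 1 model of all 16 libraries with group as the only term, unshrunken log2 fold changes, the Cook's distance and independent filters, and Benjamini-Hochberg adjustment over all genes. A call needed an adjusted p of 0.05 or less and a log2 fold change of 0.5 or more in size. The edgeR quasi-likelihood test (version 4.0.16) and limma (version 3.58.1) on log2(FPKM + 0.1) were alternatives, and the tests were tried on simulated data. The genes and lists were chosen with earlier results of these data known. Named genes were the 10 members, up to 3 called genes per direction of each list with 50 or more normalized counts on average, the 3 most similar genes of BEGAIN, Igf2, H19 and Meg3, and Evl, Igf1r, Igf2r and Igfbp7. Only some of the genes that this rule gives are reported. All 10 genes in Aged Sham against Young Sham, and BEGAIN in every comparison with sham libraries, are described without p-values, and BEGAIN is left out of the counts of calls there.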

Additional observations from a re-analysis of the deposited data

Results flagged for a closer look

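A library was singled out where its gap to the nearest library of its group, divided by the range of the group, passed the 95% critical value of Dixon (0.829 for 4 samples, 0.71 for 5). Of 28 sets of group and gene, each with a library of 10 counts or more, 5 met this, and chance singles out about 1 in 20. Dlk1 in Aged Bleo 5 had 822.4 normalized counts against 0 in the other 3 libraries of the group. Meg3 in the same library had 161.4 against 0 to 3.6. Meg3 in Young Bleo 19 had 101.4 against 12.5 to 25.1. H19 in Aged Bleo 3 had 50.4 against 15.7 to 21.4. Igf2 in Young Bleo 17 had 208.8 against 377.4 to 410.0.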

How the results depend on the processing

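Peg3 in the young response was called under all 5 alternatives and with each library left out. Other calls depended on the setting. With the edgeR quasi-likelihood test the number of genes called (of 10 in Aged Bleo against Young Bleo, and of the 9 other than BEGAIN elsewhere) was 1 in Young Bleo against Young Sham and 0 in Aged Bleo against Young Bleo, in Aged Bleo against Young Sham and in Aged Sham against Young Sham. With limma-trend on log2(FPKM + 0.1) it was 1, 0, 0 and 0 in that order. With only the libraries of the groups compared it was 3 in the young response, 1 in the aged response, 0 in Aged Bleo against Young Bleo and 0 in Aged Bleo against Young Sham. TMM size factors and a filter of 10 counts in 3 libraries left these counts within 1.5 times the reported ones. With each library left out in turn the counts ranged from 1 to 2 in Young Bleo against Young Sham, 0 to 1 in Aged Bleo against Aged Sham, 0 to 2 in Aged Bleo against Young Bleo, 0 to 3 in Aged Bleo against Young Sham, 0 to 1 in Aged Sham against Young Sham and 0 for the difference of responses. Leaving out Aged Bleo 1 and 2 together, an alternative chosen after seeing the data, gave 1 in Aged Bleo against Aged Sham, 3 in Aged Bleo against Young Bleo, 1 in Aged Bleo against Young Sham and 2 for the difference of responses. The first and last of these counts include Dlk1, which 1 library carries, because DESeq2 does not screen outliers in a group of 2. With edgeR the other imprinted genes called were 0 in Aged Bleo against Young Bleo and 0 for the difference of responses, the IGF axis genes called were 0 for that difference, and the chromosome 12 neighbours called were 0 in Young Bleo against Young Sham, in Aged Bleo against Aged Sham, in Aged Bleo against Young Bleo and in Aged Bleo against Young Sham. With a pseudocount of 1 on FPKM the log2 ratio of H19 to Igf2 was -0.45 in young and -0.69 in aged sham ECs, and -0.30 in young and -0.55 in aged injured ECs, since most values are below 1 FPKM. The causes of the other shifts were not tested. No paired analysis was possible because the library numbers do not repeat between groups. Depth limits H19, Meg3 and Dlk1, which have few reads in many libraries.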
